A study of Mus musculus with 3 samples.

Results

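A small set of mesenchymal cells of the embryonic mouse palate was picked out by the RNA of 5 marker genes, Slc26a7, Otor, Aldh1a2, Klhl1 and Cdh6. A cell barcode with at least 500 detected genes was kept when it held a molecule of at least 2 of these 5 genes and of at least 1 of the mesenchymal genes Twist1, Prrx1, Pdgfra, Col3a1 and Col1a2. It also had to hold no molecule of Epcam (epithelium), Gad2 (GABAergic neurons), Tyrobp (myeloid cells) or Pax9 (a transcription factor of palatal mesenchyme). The rule kept 107 of 8107 barcodes. Their marker levels chose them, so every comparison of the kept cells with other cells is given as a description and carries no test.

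The tissue was the palatal shelves of wild-type C57BL/6J embryos, taken at E13.5, at E14.5 or at E15.5, dissociated, fixed in methanol and profiled with 10x Genomics droplets. Each stage was represented by 1 library made from pooled tissue of 3 embryos, so no value has a replicate, and stage cannot be told apart from library. No treatment or altered allele was involved. The 3 libraries shared between 1 and 3 barcode sequences with each other, and 0 of the kept barcodes were among them. A unique molecular identifier (UMI) marks each captured RNA molecule. UMIs summed over a group of cells are scaled to the group's total as counts per 1000000 (CPM), and 95% intervals cover counting error only. In stage order, the kept cells held 93850, 122177 and 221694 UMIs, so that 1 UMI corresponded to 10.7, 8.18 and 4.51 CPM. They were compared with the other mesenchymal barcodes, which met every condition except that they held 0 or 1 of the 5 markers (783, 1007 and 1400 of them). Kept cells were deeper, with a median of 3919.5, 3113 and 3399 UMIs against 2091, 1621 and 1693.5. Shares were therefore also taken after thinning each barcode to the same number of UMIs.

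The palatal shelves are outgrowths of the upper jaw whose mesenchyme, mostly of neural crest origin, gives rise to the bone and connective tissue of the hard and soft palate. The 5 markers do different work in a cell. Slc26a7 is an anion exchanger, Otor (otoraplin) is a secreted protein of the MIA family, Aldh1a2 makes retinoic acid from retinaldehyde, Klhl1 is an actin-binding Kelch-like protein best known in neurons, and Cdh6 is a classical cadherin of the type II class.

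On the mouse build GRCm38 (mm10), in the GENCODE M21 annotation, the 5 genes lie apart. Slc26a7 is at chr4:14502430-14621805 on the minus strand and Otor at chr2:143078473-143081713 on the plus strand. Aldh1a2 is at chr9:71215789-71296243 on the plus strand. Klhl1 is at chr14:96102736-96519102 and Cdh6 at chr15:13028701-13173675, both on the minus strand.

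The share of barcodes kept was lowest at E13.5 and higher in the later libraries. The rule kept 16 of 3692 barcodes at E13.5 (0.433%, Clopper-Pearson interval 0.248 to 0.703), 33 of 1775 at E14.5 (1.86%, 1.28 to 2.60) and 58 of 2640 at E15.5 (2.2%, 1.67 to 2.83). The note in the rule that the group is richest at E13.5 is therefore not borne out by these counts. Among mesenchymal barcodes alone the kept share was 2.00% (1.15 to 3.23), 3.17% (2.19 to 4.43) and 3.98% (3.03 to 5.11), and the intervals of all 3 stages overlapped. With every barcode thinned to 1000 UMIs before the rule was applied, 0.131%, 0.835% and 1.44% were kept, in the same order. The exclusion genes removed most candidates at E13.5: of 47 barcodes there with 2 markers and a mesenchymal gene, 27 held Gad2 and 16 held Epcam.

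**Figure D1:**
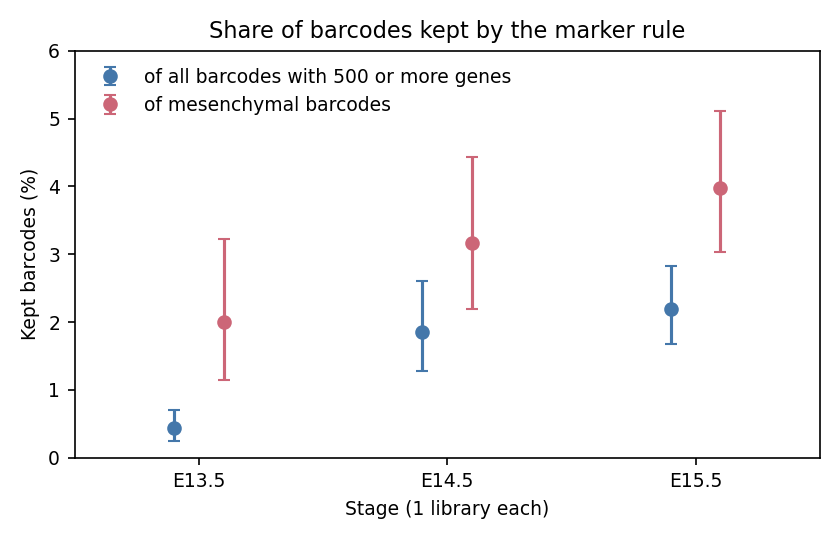
Percent of barcodes kept by the rule (y axis) at each stage (x axis), among all barcodes with 500 or more genes (blue) and among mesenchymal barcodes (red); bars are Clopper-Pearson 95% intervals for 1 library per stage. Both shares are lowest at E13.5 (0.433% and 2.00%) and highest at E15.5 (2.2% and 3.98%).

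The 5 markers were seldom found together in the same cells, and the combinations differed by stage. Slc26a7, Otor and Aldh1a2, the genes that give the group its name, occurred pairwise in few cells. Slc26a7 and Otor shared 1, 0 and 2 kept barcodes in stage order, Otor and Aldh1a2 shared 2, 0 and 1, and Slc26a7 and Aldh1a2 shared 0, 6 and 5. Cdh6 was the usual partner. It was present in 16 of 16, 24 of 33 and 49 of 58 kept barcodes.

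At E13.5 the leading pairs were Aldh1a2 with Cdh6 and Otor with Cdh6, with 4 barcodes each, and no kept barcode lacked Cdh6. At E14.5 they were Otor with Cdh6 (10 barcodes), Aldh1a2 with Cdh6 (7) and Slc26a7 with Aldh1a2 (6). At E15.5 the commonest combination was the triple of Slc26a7, Klhl1 and Cdh6 (16 barcodes), followed by Slc26a7 with Cdh6 (12), Klhl1 with Cdh6 (9) and Aldh1a2 with Cdh6 (8). Barcodes with 3 or more markers numbered 3, 0 and 19, and the most in any barcode was 4. The label of 1 cell type with Slc26a7, Otor and Aldh1a2 thus goes against the data, and the cells are called kept cells here.

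**Figure D2:**
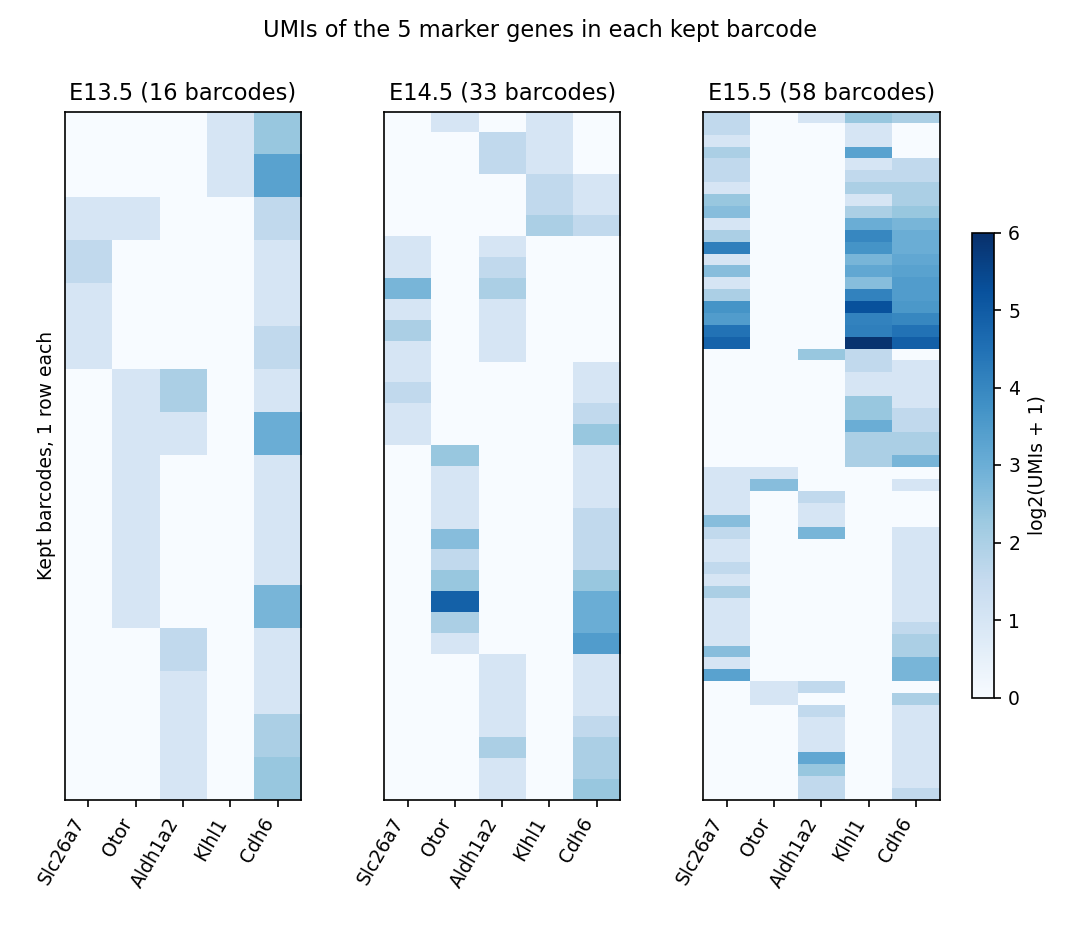
UMIs of the 5 marker genes (columns) in each kept barcode (rows), as log2(UMIs + 1), in 1 panel per stage (16, 33 and 58 barcodes in stage order). The dark block at E15.5 is the set of barcodes with Klhl1, Cdh6 and mostly Slc26a7, and the darkest Otor cell at E14.5 is 1 barcode with 28 UMIs.

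Among all mesenchymal barcodes of the E15.5 library, Klhl1 came with Slc26a7 and Cdh6 and not with Otor or Aldh1a2. Cdh6 was detected in 26 of 45 barcodes with Klhl1 (57.8%, 42.2 to 72.3) and in 124 of 1413 without it (8.78%, 7.35 to 10.4). Slc26a7 was detected in 20 of the 45 (44.4%, 29.6 to 60.003) and in 73 of the 1413 (5.17%, 4.07 to 6.45). After thinning to 1000 UMIs, which left out 326 of these barcodes as shallower, Cdh6 was found in 16 of 29 barcodes with Klhl1 (55.2%) and in 5.26% of those without, and Slc26a7 in 12 of 29 (41.4%) and in 2.63%. Otor was found in 0 of the 45 barcodes with Klhl1 (up to 7.87%) and in 0.920% of the others, and Aldh1a2 in 4.44% and 4.46%.

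At E14.5 Otor with Cdh6 and Slc26a7 with Aldh1a2 had shares whose intervals did not overlap. Cdh6 was detected in 10 of 29 barcodes with Otor (34.5%, 17.9 to 54.3) and in 11.9% of those without (9.94 to 14.02). After thinning it was found in 5 of 12 and in 7.27%, with 230 shallower barcodes left out. Aldh1a2 was detected in 6 of 38 barcodes with Slc26a7 (15.8%, 6.02 to 31.3) and in 3.89% of those without (2.78 to 5.28). After thinning 1 of 13 and 1.76% were left, too few to set apart. At E15.5 the difference for Aldh1a2 was within counting error: Slc26a7 was detected in 7.69% of barcodes with Aldh1a2 (2.54 to 17.05) and in 6.32% of those without. Cdh6 was detected in 10 of 65 barcodes with Aldh1a2 (15.4%, 7.63 to 26.5) and in 10.1% of those without (8.52 to 11.8), and after thinning in 3 of 28 (10.7%) and 6.43%. At E13.5 no barcode kept Cdh6 together with Slc26a7 or Aldh1a2 once thinned, and 1 each kept it with Otor and with Klhl1.

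A share of cells with a UMI also holds free RNA. Endothelial or myeloid barcodes, named by at least 3 of 8 listed genes of either type, served as its measure, at median depths of 4333, 2632.5 and 2422 UMIs against 2136, 1665 and 1740 in all mesenchymal barcodes. These background barcodes were not barred from the mesenchymal set, and at E15.5 45 of 137 held Col1a2. At E15.5 Slc26a7 was detected in 6.38% of mesenchymal and 2.19% of these background barcodes, Klhl1 in 3.09% and 1.46%, and Cdh6 in 10.3% and 6.57%. Thinned, with the mesenchymal conditions applied to the thinned counts, the shares were 3.68% and 0.813% for Slc26a7, 2.10% and 0% for Klhl1 (0 of 123, which allows up to 2.95%), and 5.48% and 0.813% for Cdh6. The thinned intervals overlapped for each of these 3 genes at E15.5. In the earlier libraries Cdh6 was close to background, at 13.1% against 12.5% (4 of 32 barcodes) at E13.5 and 12.5% against 11.1% (12 of 108) at E14.5, and thinned at 5.79% against 3.12% and 6.95% against 4.17%. The intervals of these shares overlapped. All 16 kept cells of E13.5 and 24 of 33 of E14.5 were chosen with Cdh6 as a marker, and the part of free Cdh6 RNA in their choice was not tested. At E13.5, thinned, Otor was detected in 2.48% of mesenchymal and in 3.12% of background barcodes (1 of 32, interval 0.0791 to 16.2). So few background barcodes cannot set a share of this size apart. Unthinned Slc26a7 at E13.5 (2.38% against 3.12%, 1 of 32) was not set apart either, and thinned it was 1.82% against 0 of 32. Klhl1 at E14.5, thinned, was 1.19% against 1.04% (1 of 96). Aldh1a2, thinned, was 3.97%, 2.17% and 2.25% in stage order against 0 of 32, 1.04% (1 of 96) and 0 of 123.

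The leading marker by level was Cdh6 at E13.5 and E14.5 and Klhl1 at E15.5, as UMIs not scaled to gene length. Cdh6 had a lowest, median and highest count of 1, 1.5 and 9 UMIs over the 16 kept barcodes of E13.5, 0, 1 and 10 over the 33 of E14.5, and 0, 1.5 and 29 over the 58 of E15.5. Its summed level was 479, 524 and 952 CPM against 90.2, 84.9 and 50.6 CPM in other mesenchymal barcodes. Klhl1 ran from 0 to 1, 0 to 3 and 0 to 59 UMIs per barcode. Summed, it stood at 21.3, 81.8 and 1141 CPM against 3.64, 5.81 and 6.1 CPM. The kept cells of E15.5 held 253 of the 359 Klhl1 UMIs of that library (70.5%).

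Slc26a7 followed the same order, at 53.3, 147 and 726 CPM against 11.8, 16.1 and 21.0 CPM, and its highest barcode held 27 UMIs at E15.5. Otor did not. It stood at 74.6, 417 and 36.1 CPM against 34.2, 28.6 and 8.53 CPM, and 28 of its 51 UMIs at E14.5 came from 1 barcode. Aldh1a2 was at 95.9, 180 and 171 CPM against 43.7, 16.5 and 20.1 CPM, with at most 8 UMIs in a barcode. All of these values were used to choose the cells. The mesenchymal rule genes were required in both sets of cells, and their levels are given for completeness. Col1a2 stood at 362 against 463 CPM at E13.5, 1563 against 2385 CPM at E14.5 and 2526 against 2818 CPM at E15.5. Prrx1 stood at 522 against 406, 491 against 812 and 893 against 876 CPM.

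The E15.5 library held the most kept cells, and the smallest share of genes past 2-fold of the 3 stages. A gene is counted as past 2-fold when its log2 ratio, with 1 CPM added to both levels, was at least 1 in size and its higher level was at least 20 CPM. A gene under 20 CPM in the other cells could thus be past 2-fold only as higher. Likewise, a gene under 20 CPM in kept cells could be so only as lower. By this count 6.0% of 8160 genes were higher and 8.26% lower in the kept cells, 14.3% in all. Several of the genes named here, chosen after their values were seen, code for membrane or synaptic proteins best known from neurons. Cntnap2, a neurexin-like adhesion protein, was found in 21 of the 58 barcodes, with a median of 0 and 342 UMIs in the highest. It stood at 3879 CPM (3624 to 4147) in kept cells and 51.5 CPM in the others, a ratio of 75.3 (63.8 to 89.4). The kept cells held 54.8% of the 1569 Cntnap2 UMIs in the library, and without the highest barcode the log2 ratio went from 6.21 to 5.54.

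Snap25, a membrane fusion protein of synapses, was found in 19 kept barcodes and stood at 451 CPM against 7.62 CPM, a ratio of 59.2 (37.9 to 95.8). The potassium channel gene Kcnd2 was found in 27 barcodes, at 1105 against 64.9 CPM. Pcdh11x, a protocadherin, stood at 1732 against 111 CPM, and Tmeff2, a transmembrane protein with follistatin-like domains, at 284 against 16.2 CPM. Lingo2, a leucine-rich repeat membrane protein, was found in 35 barcodes and stood at 2932 against 266 CPM. The adhesion receptor Adgrb3 stood at 2666 against 272 CPM. Robo1, the Slit receptor, was detected in 55 of 58 kept barcodes and reached 6545 CPM against 943 CPM, a ratio of 6.94 (6.52 to 7.39). Thinned, Robo1 was found in 77.8% of kept, 49.0% of other mesenchymal and 26.8% of endothelial or myeloid barcodes. In the same order Lingo2 was found in 48.1%, 14.3% and 2.44%, Kcnd2 in 35.2%, 4.08% and 3.25%, and Snap25 in 18.5%, 0.464% and 0%. Erbb4, a neuregulin receptor, stood at 379 against 39.0 CPM. In the 8 E15.5 barcodes with 2 of Slc26a7, Otor and Aldh1a2, the log2 ratios of Robo1, Snap25 and Erbb4 turned to -1.90, -5.21 and -5.95. Those of Cntnap2, Tmeff2, Pcdh11x and Adgrb3 were 0.05, 0.39, 0.52 and 0.31, and those of Kcnd2 and Lingo2 were 1.23 and 1.45. Here and below, kept cells that did not hold 2 of these marker genes joined the comparison group. Snap25 had no UMI in the 8 barcodes, so the size of its ratio rests on the 1 CPM added.

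Secreted signals were among the genes higher in the kept cells at E15.5. Fgf10, a growth factor that mesenchyme sends to epithelium, was found in 27 barcodes and stood at 429 CPM against 42.7 CPM (ratio 10.0, 7.66 to 13.1). Rspo2, an amplifier of Wnt signalling, was found in 23 barcodes and stood at 370 against 32.0 CPM (ratio 11.6, 8.55 to 15.6). Bmp3, a BMP family member that opposes the osteogenic BMPs, was found in 16 barcodes and stood at 185 against 19.2 CPM (ratio 9.63). In the 8 barcodes with 2 of Slc26a7, Otor and Aldh1a2, the log2 ratios of Fgf10, Rspo2 and Bmp3 were 0.96, 1.29 and 0.54. Gdf10, a related ligand, was higher in all 3 libraries. It stood at 85.2 against 17.8 CPM at E13.5, 73.7 against 16.1 CPM at E14.5 and 54.1 against 13.7 CPM at E15.5, from 8, 9 and 12 UMIs.

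The neuronal list was mixed at E15.5. Its summed level was 708 CPM (602 to 828) against 317 CPM (298 to 337). Snap25 alone made up most of the sum in kept cells, and without it the sum was not higher there. Of 10 listed neuronal genes, 5 had a level high enough to be counted. Snap25 was higher and Stmn2 and Elavl4 were lower, beside 6.0% higher and 8.26% lower of all genes. The median log2 ratio was -0.89, against -0.02 over all genes. Tubb3, the neuronal tubulin, stood at 4.51 CPM (1 UMI) against 10.4 CPM, and Stmn2 at 9.02 CPM (2 UMIs, both in 1 barcode) against 38.7 CPM. Barcodes with at least 3 of the 10 neuronal genes were 3 of 58 kept cells (5.17%) and 2.21% of the others, and without them the log2 ratios of Cntnap2, Robo1 and Lingo2 were 6.87, 2.64 and 3.56. At E14.5 3 of 7 counted neuronal genes were higher (Stmn2, Snap25, Nefm) and 0 lower, beside 8.91% and 12.3% of all genes, with a median of 0.77 against 0.01 over all genes and a summed 638 against 362 CPM. Without the gene's highest barcode the log2 ratio of Stmn2 went from 1.02 to -0.76 and that of Nefm from 2.79 to -2.86, which ends both calls, and that of Snap25 from 3.03 to 2.12.

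**Figure D3:**
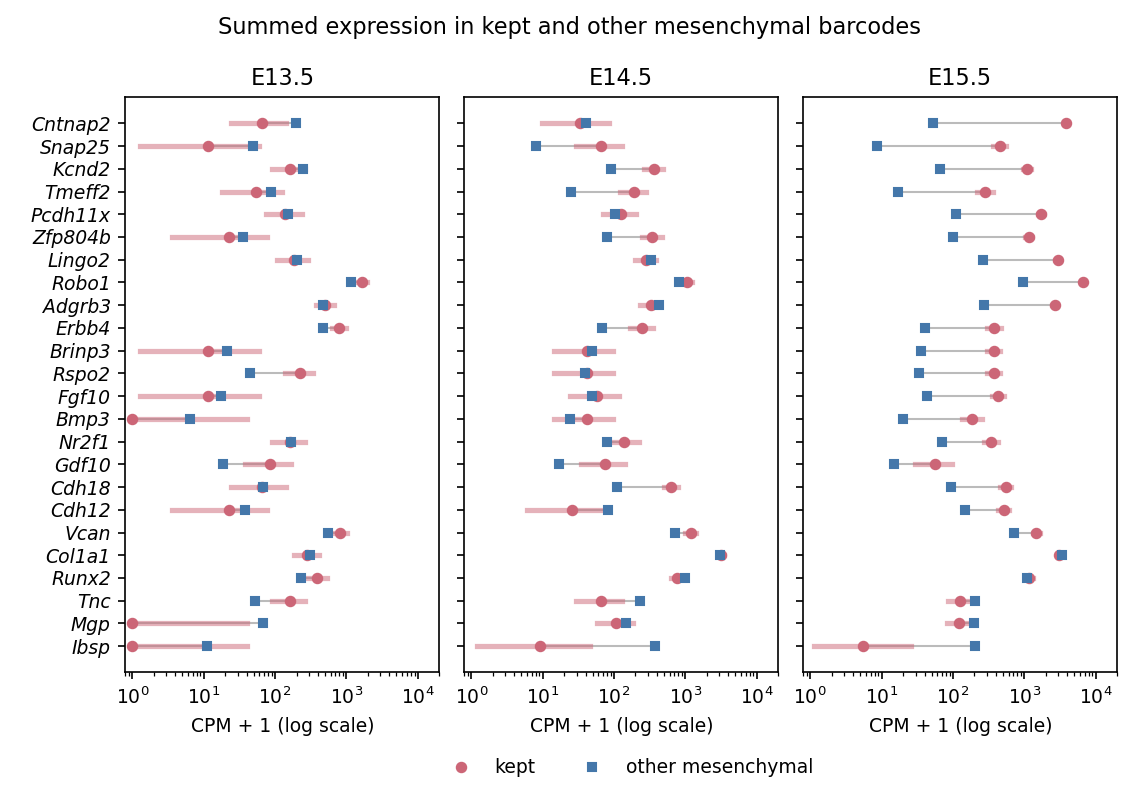
Summed expression of 24 genes in kept (red circles, with Poisson 95% intervals) and other mesenchymal barcodes (blue squares), as CPM + 1 on a log axis, in 1 panel per stage. At E15.5 Cntnap2 lies at 3879 CPM in kept cells and 51.5 CPM in the others, while at E13.5 and E14.5 it lies at 63.9 and 32.7 CPM against 194 and 39.3 CPM.

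The kept cells of E15.5 were divided by Klhl1 after their values had been seen, into 30 with a Klhl1 UMI (107009 UMIs in all, median 2923 per barcode) and 28 without (114685, median 3582.5). Between them 14.7% of 8084 genes were higher and 26.2% lower by 2-fold in the cells with Klhl1, 40.9% in all. Per 10,000 UMIs, Robo1 ran from 5.14 over a median of 68.1 to 415 in cells with Klhl1, and from 0 over 8.09 to 96.6 in those without. Lingo2 ran from 0 over 36.7 to 183 and from 0 over 0 to 34.2. Adgrb3 ran from 0 over 22.6 to 159 and from 0 over 0 to 28.1. The ranges overlapped: for Robo1 and Adgrb3 the highest barcode without Klhl1 lay above the median of those with it. The highest barcode of each of these 3 genes held Klhl1.

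Cntnap2 was detected in 18 of 30 barcodes with Klhl1 and 3 of 28 without, at 7831 and 192 CPM. Snap25 was detected in 17 and 2, at 916 and 17.4 CPM. Erbb4 stood at 776 and 8.72 CPM, and Gpm6a, a neuronal membrane glycoprotein, at 374 CPM (40 UMIs in 19 barcodes) against 0 UMIs, which is at least 14.3-fold higher. Brinp3 stood at 729 and 34.9 CPM and Zfp804b at 2215 and 148 CPM. The type II cadherin genes Cdh12 and Cdh10 stood at 906 and 148 CPM and at 140 and 8.72 CPM.

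Nr2f1, a retinoid-responsive nuclear receptor, was found in 19 of 30 and 5 of 28 barcodes, at 645 and 61.0 CPM. Tbx22, a T-box factor whose loss in humans causes cleft palate, was found in 9 and 1, at 103 and 8.72 CPM, and the homeobox gene Alx1 in 14 and 7, at 243 and 69.8 CPM. Fgf10 stood at 757 and 122 CPM and Bmp3 at 336 and 43.6 CPM. The fibroblast proteoglycan gene Dcn stood at 617 and 270 CPM.

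Some regulators ran the other way. Runx2, the osteoblast transcription factor, was found in 11 of 30 barcodes with Klhl1 and 18 of 28 without, at 561 and 1726 CPM, against 1083 CPM in other mesenchymal cells. Eya1, a transcriptional coactivator, stood at 74.8 and 628 CPM, and Prrx1, a rule gene, at 514 and 1247 CPM. Among collagen genes Col1a1 stood at 3028 and 3122 CPM, Col3a1 at 1495 and 1622 CPM and Col6a2 at 56.1 and 314 CPM. The kept cells without Klhl1 held 33 of 38 Aldh1a2 and 8 of 8 Otor UMIs, a split shaped by the rule, which asks such cells for 2 of the other markers. In the cells without Klhl1 Lingo2 stood at 384 CPM and Adgrb3 at 506 CPM, against 266 and 272 CPM in other mesenchymal barcodes.

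**Figure D4:**
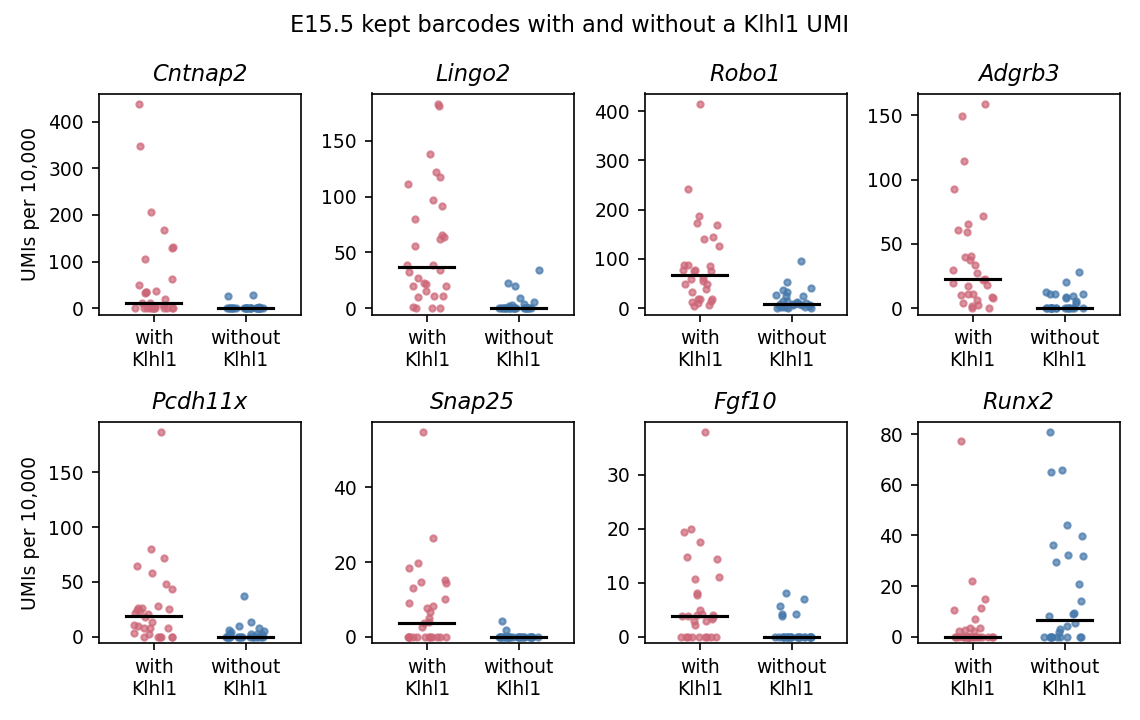
UMIs per 10,000 of 8 genes (y axes, which differ between panels) in each kept E15.5 barcode with a Klhl1 UMI (30, red) and without (28, blue); black lines are medians and points are spread sideways for visibility. The median of Robo1 is 68.1 with Klhl1 and 8.09 without, and that of Runx2 is 0 and 6.68.

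Barcodes with Klhl1 that the rule left out were compared next. Of 67 barcodes with a Klhl1 UMI at E15.5, 30 were kept, 15 lacked a second marker, 11 held Pax9, 7 held Epcam, Gad2 or Tyrobp, and 4 lacked a mesenchymal gene. The 15 without a second marker (40438 UMIs) held Lingo2 at 544 CPM (341 to 824) against 263 CPM (245 to 281) in the 1385 barcodes with neither Klhl1 nor a second marker. Robo1 stood at 1632 CPM (1262 to 2077) against 935 CPM, Pcdh11x at 247 CPM (119 to 455) against 109 CPM, and Gpm6a at 124 CPM (40.1 to 289, 5 UMIs) against 22.8 CPM. Adgrb3, at 297 CPM (153 to 518) against 272 CPM, and Snap25, from 1 UMI, were not distinguishable from that level by counting error. The 11 barcodes with Pax9 held Robo1 at 3301 CPM and Lingo2 at 2103 CPM, but 163 of 270 Robo1 UMIs and 141 of 172 Lingo2 UMIs came from 1 barcode.

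**Figure D5:**
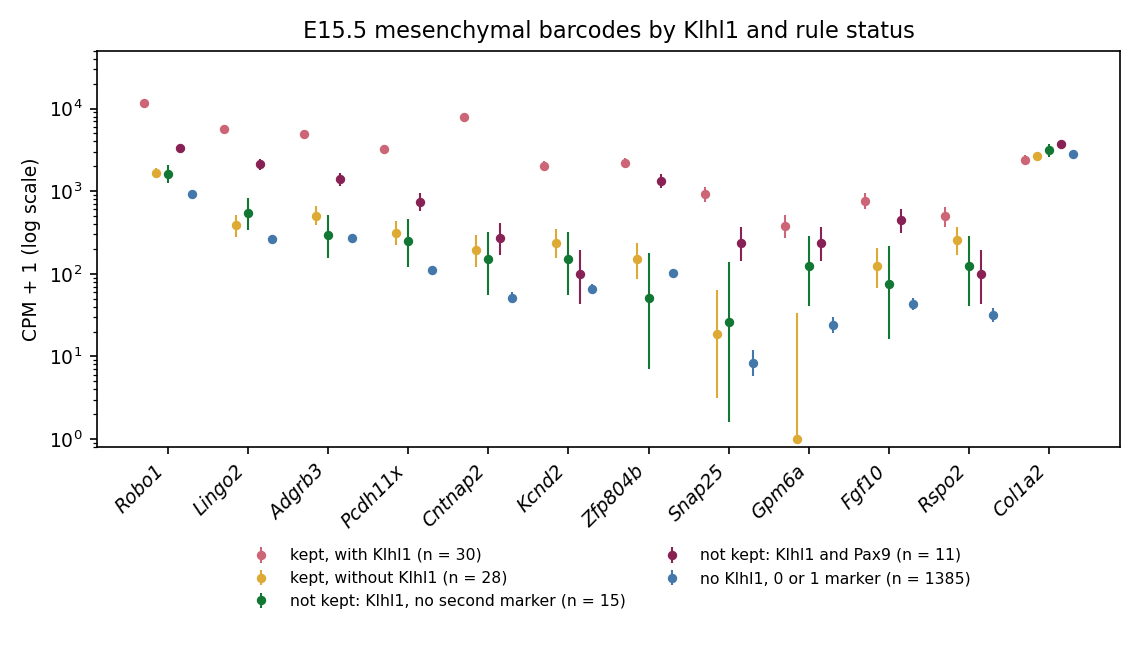
CPM + 1 on a log axis for 12 genes in 5 classes of E15.5 mesenchymal barcodes, by Klhl1 and by the rule, with Poisson 95% intervals. The 30 kept barcodes with Klhl1 (red) are highest for 11 genes, while Col1a2 lies between 2402 and 3705 CPM in every class.

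Levels were also taken on both sides of the rule's threshold. At E15.5 Robo1 stood at 959 CPM in barcodes with 0 markers, 886 CPM with 1, 2230 CPM with 2 and 13432 CPM with 3 or more. Cntnap2 stood at 54.8, 39.6, 580 and 9146 CPM. Adgrb3 stood at 252, 345, 792 and 5656 CPM. Barcodes just outside the rule, with 1 marker, lay below those with none for Robo1 and Cntnap2 and above them for Adgrb3, and the 19 barcodes with 3 or more lay highest for all 3 genes. At E14.5, where none had more than 2 markers, Robo1 stood at 792, 857 and 1056 CPM for 0, 1 and 2 markers. At E13.5 it stood at 991, 1575, 1747 and 1300 CPM for 0, 1, 2 and 3 or more, the last from 3 barcodes.

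The kept cells of E14.5 were a different mixture. By 2-fold, 8.91% of 8354 genes were higher and 12.3% lower than in other mesenchymal barcodes, 21.2% in all. Some of the E15.5 genes were already higher: Kcnd2 stood at 360 CPM (11 barcodes) against 88.9 CPM, Zfp804b at 344 CPM (5 barcodes) against 78.2 CPM, Erbb4 at 246 CPM (9 barcodes) against 66.6 CPM and Cdh18 at 630 CPM (12 barcodes) against 108 CPM. In the 6 barcodes with 2 of Slc26a7, Otor and Aldh1a2 the log2 ratio of Kcnd2 turned to -0.73, and those of Zfp804b, Erbb4 and Cdh18 were 2.19, 1.04 and 2.34. The division by Klhl1 gave other values at E14.5. The 6 kept barcodes with Klhl1 (21265 UMIs) held 0 UMIs of Kcnd2 and of Erbb4 (0 to 173 CPM), against 436 and 297 CPM in the 27 without. Snap25 and Nr2f1 also had 0 UMIs, against 79.3 and 168 CPM, which that bound does not set apart. Zfp804b stood at 517 CPM with Klhl1 and 307 CPM without, Runx2 at 1599 and 595 CPM, and Robo1 at 1035 and 1060 CPM. These levels with Klhl1 rested on few barcodes. All 11 Zfp804b UMIs and 72.7% of the Robo1 UMIs were in 1 barcode each. Runx2 was detected in 2 of 6 barcodes with Klhl1 and in 17 of 27 without, so by detection its direction was the other way. Other E15.5 genes were not higher at E14.5, with Cntnap2 at 32.7 against 39.3 CPM and Pcdh11x at 123 against 102 CPM. The largest ratios came from few barcodes. Kcnc2, a potassium channel gene, stood at 254 against 8.94 CPM from 4 barcodes, and Il33 and Mfap5 at 98.2 against 3.58 CPM and 90.0 against 3.58 CPM from 3 barcodes each. Without the highest barcode their log2 ratios went from 4.68 to 3.26, from 4.44 to 3.26 and from 4.31 to 3.26.

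Of 12 listed cartilage genes, 11 of 12 counted at E14.5 were lower, with a median log2 ratio of -2.48 against 0.01 over all genes. At E13.5, 6 of 11 counted were lower, beside 11.6% of all genes, and at E15.5 2 of 11 were, beside 8.26%. At E14.5 the aggrecan gene Acan had 0 UMIs against 102 CPM, at least 4.17-fold lower, and Sox9, the cartilage regulator, stood at 16.4 against 139 CPM. Col2a1 was an exception at 327 against 485 CPM. Ibsp, a bone matrix protein, was represented by 1 UMI at E14.5 (8.18 against 378 CPM, ratio 0.0217, 0.000548 to 0.121) and by 1 UMI at E15.5 (4.51 against 202 CPM, ratio 0.0224, 0.000565 to 0.125). Of the 12 osteogenic genes, 1 of 2 counted was lower at E13.5, where the list summed to 448 against 425 CPM, 4 of 6 at E14.5, beside 12.3% of all genes, and 2 of 5 at E15.5. Runx2 was not, at 769 against 982 CPM and 1164 against 1083 CPM. Of 16 early response genes, 2 of 12 counted were higher and 1 lower at E13.5, near the 13.7% and 11.6% of all genes. At E14.5 8 of 15 were lower, beside 12.3% of all genes, and at E15.5 3 of 16, beside 8.26%. The summed levels were 2184 against 2035, 712 against 1775 and 2138 against 2750 CPM in stage order. Among those lower at E14.5 were Egr1 at 81.8 against 472 CPM and Fos at 73.7 against 340 CPM.

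At E13.5 neuronal transcripts were found in kept and other mesenchymal barcodes alike. At least 3 of 10 neuronal genes were found in 7 of 16 kept cells (43.8%) and in 28.6% of the others, at the unequal depths given above. By level, 0 of the 10 were higher and 2 lower (Stmn2, Snap25), with a summed 1215 against 1663 CPM. Thinned, Stmn2 was found in 0 of 16 kept cells (up to 20.6%) and 21.8% of the others, and Tubb3 in 18.8% (4.05 to 45.6) and 13.9%. In the 32 endothelial or myeloid barcodes, thinned, Stmn2 was found in 21.9% and Tubb3 in 18.8%. The part of free RNA in these shares was not tested. By 2-fold, 13.7% of 8728 genes were higher and 11.6% lower, 25.2% in all. All 6 Schwann and glial genes that could be counted, of 8 listed, were higher, with a summed level of 661 CPM for the list against 193 CPM. At this depth 2 UMIs in kept cells (21.3 CPM) were enough to be counted. A gene under 20 CPM in the other cells could be counted only through the kept cells, so the count is partly set by that minimum. Fabp7, a glial fatty acid binding protein, made up most of the summed level, at 501 CPM from 5 barcodes, with 26 of its 47 UMIs in 1 of them. Sox10, a defining gene of these cells, had 0 UMIs. Without the 7 barcodes with 3 or more neuronal genes, Rspo2, Fap and Lef1 had log2 ratios of 2.21, 1.79 and 1.77, and March11 had -2.12.

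A naming rule took genes with the same direction in all 3 libraries. The 12 largest ratios at E13.5 that held their sign later included those of March11, Cntn5, Grm7, Rspo2, Gm20754, Fap, Lef1, Arhgap31, Lhfp, Arhgap6 and Cdk7. The sign was required by that rule and is no finding. Fap, a membrane protease of activated fibroblasts, was past 2-fold in each: 139 against 46.4 CPM at E13.5, 246 against 72.4 CPM at E14.5 and 289 against 116 CPM at E15.5, from 8, 14 and 26 barcodes. In the 8 barcodes with 2 of Slc26a7, Otor and Aldh1a2 at E15.5 its log2 ratio was -0.54. Lef1, a Wnt effector, stood at 213 against 72.9, 156 against 67.5 and 144 against 47.2 CPM, but without its highest barcode at E15.5 the log2 ratio went from 1.59 to 0.48 and at E14.5 from 1.19 to 0.79, which ends both calls, and it was lower in the E15.5 barcodes with Klhl1 (18.7 CPM) than without (262 CPM). Rspo2 was high at E13.5 (224 against 43.3 CPM) and E15.5 but stood at 40.9 against 38.0 CPM at E14.5, and without its highest barcode the E13.5 log2 ratio went from 2.34 to 1.52. Cntn5, a contactin, stood at 1321 against 142 CPM at E13.5, with 58 of 124 UMIs in 1 barcode, and 988 against 202 CPM at E15.5, where 187 of its 219 UMIs were in 1 barcode. Grm7 stood at 639 against 104 CPM at E13.5, with 46 of 60 UMIs in 1 barcode. Without the highest barcode at E13.5 the log2 ratio of March11 went from 3.23 to 0.15, of Grm7 from 2.61 to 0.66, of Cntn5 from 3.21 to 2.44, of Gm20754 from 1.77 to 0.99 and of Lhfp from 1.44 to -1.17.

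The 12 genes at the other end were Gpc5, Glrx5, Mgp, Gfod2, Napg, Mylpf, Tmem47, Mia, Hba-a1, Hbb-y, Hba-a2 and Arpc4. The globin genes, whose transcripts come from red cells, stood out by level: Hba-a1 at 426 against 4197, 1932 against 3353 and 1105 against 2368 CPM. Mia, the cartilage gene of the family that Otor belongs to, stood at 10.7 against 124 CPM at E13.5. The first 7 had 0 UMIs at E13.5, so their levels there are at least 1.6-fold to 2.78-fold lower.

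For the gene lists that follow, the shares over all genes to set beside the counts are 13.7%, 8.91% and 6.0% higher and 11.6%, 12.3% and 8.26% lower, in stage order. Retinoid genes were listed because Aldh1a2 makes their ligand. Of 23 listed, 2 of 13 counted were higher at E13.5 (Dhrs3, Rara), 3 of 12 at E14.5 (Rdh10 and Rarb among them) and 2 of 11 at E15.5 (Rarb, Nr2f1). In the same order 0, 1 (Rxra) and 1 (Crabp1) were lower, and the medians were 0.36, 0.21 and 0.02. The receptor gene Rarb, itself induced by retinoic acid, stood at 180 against 73.3 CPM at E14.5 and 167 against 76.2 CPM at E15.5, and at 63.9 against 114 CPM at E13.5. Crabp1, which binds retinoic acid in the cytoplasm, was lower at E15.5, at 40.6 against 96.9 CPM. Anion transport genes, listed for Slc26a7, had 3 of 9, 1 of 8 and 2 of 8 counted higher, and 1 (Slc4a3), 1 (Car2) and 0 lower. The counts of 2 of 13 retinoid genes at E13.5 and of 1 of 8 transport genes at E14.5 are near the shares over all genes. Several counts given below are as near. Among them are 1 of 9 cadherin genes each way and 1 of 10 meningeal genes higher at E13.5. Another is 2 of 23 matrix genes lower at E15.5. No count was tested. The bicarbonate cotransporter Slc4a4 stood at 131 against 31.7 CPM at E14.5 and 72.2 against 36.3 CPM at E15.5. Cadherin genes other than the marker had 1 of 9 counted higher and 1 lower at E13.5, 3 of 12 higher and 3 lower at E14.5, and 3 of 10 higher (Cdh10, Cdh12, Cdh18) and 2 lower (Cdh5, Cdh20) at E15.5. Cdh18 stood at 550 against 92.6 CPM from 24 barcodes.

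Signalling genes were listed by pathway. Of 24 BMP and TGF-beta genes, 8 of 19 counted were higher at E13.5 and 0 lower, 1 was higher and 5 lower at E14.5, and 2 were higher (Bmp3, Gdf10) and 1 lower (Bmp4) at E15.5. Of 24 Wnt genes, 5 of 13 counted were higher at E13.5, 3 of 15 were higher and 3 lower at E14.5, and 2 of 14 were higher (Wnt5b, Lef1) and 2 lower (Frzb, Dkk2) at E15.5. The Lef1 call at E14.5 and both higher calls at E15.5 ended without the gene's highest barcode, at log2 ratios of 0.79 for Lef1 at E14.5 and of -2.30 for Wnt5b and 0.48 for Lef1 at E15.5. Mitotic genes, 17 in number, had 4 of 17, 3 of 14 and 4 of 13 counted lower, and 1 was higher (Cdk1, at E13.5). Cenpf, a kinetochore gene, stood at 31.6 against 128 CPM at E15.5. Of 23 matrix genes, all counted at each stage, 5 were higher at E13.5, 2 lower at E14.5, and 1 higher and 2 lower at E15.5. The proteoglycan gene Vcan stood at 1470.5 against 716 CPM at E15.5, and Tnc, for tenascin C, at 65.5 against 233 CPM at E14.5.

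Genes of palatal and neighbouring mesenchyme were counted in the same way. Of 20 palate regulators, 6 of 12 counted were higher and 1 lower at E13.5, 0 of 17 were higher and 5 lower at E14.5, and 4 of 16 were higher (Tbx22, Fgf10, Lhx6, Alx1) and 3 lower (Barx1, Meox2, Foxf1) at E15.5. Alx1 was among the higher at E13.5 and E15.5 and the lower at E14.5. At E15.5 Meox2 stood at 4.51 against 33.8 CPM and Barx1 at 36.1 against 92.6 CPM. Pax9 was absent by the rule. Among mesenchymal barcodes before that exclusion it was found in 13 of 71 with 2 or more markers at E15.5 (18.3%, 10.1 to 29.3) and in 21.9% of those with none (19.9 to 24.1), which counting error does not set apart. Of 18 meningeal genes, 1 of 10 counted was higher at E13.5, 3 of 8 were higher (Foxc1, Cldn11, Rdh10) and 1 lower at E14.5, and 0 of 6 were higher and 3 lower at E15.5, with medians of 0.37, 0.47 and -1.08. Without its highest barcode Foxc1 at E14.5 was at a log2 ratio of 0.69, which ends its call. At E15.5 10 of the 18 had 0 UMIs in kept cells, among them Ptgds. Of 8 periocular genes, 2 of 5 counted were higher and 1 lower (Tfap2b) at E13.5, 2 of 5 higher and 1 lower (Eya2) at E14.5, and 2 of 6 higher and 0 lower at E15.5, where the list summed to 1683 against 1755 CPM. The higher genes at E15.5, Foxl2 and Cyp1b1, stood at 27.1 against 2.44 CPM and 31.6 against 5.18 CPM at E15.5, from 6 barcodes each. Both were under 20 CPM in the other cells, so they entered the count only through the kept cells. At E14.5 all 3 Foxl2 UMIs were in 1 barcode.

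Clusters made without the 14 rule genes did not return the kept cells as a cluster of their own. They were spread over 11 of 20 clusters. The most, 40 of 107 (37.4%, 28.2 to 47.3), fell in a cluster of 634 barcodes, which held 8 of 16, 9 of 33 and 23 of 58 kept cells, and 26.4%, 9.93% and 8.21% of other mesenchymal barcodes, in stage order. Its 10 leading genes by ratio included Rspo2, Tbx15 and Cxcl12, and the rule markers Klhl1, Otor and Slc26a7, which the clustering had not used. The kept cells in the cluster were chosen by these markers, so their lead is partly set by the rule and is no independent support. Of the 30 E15.5 kept cells with Klhl1, 17 were in it and 8 in a cluster of 893 barcodes led by Runx2, while of the 28 without Klhl1 6 and 12 were. At E13.5 4 of the 16 kept cells lay in a cluster led by hemoglobin and neuronal genes.

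Between stages the kept cells are different mixtures of marker combinations. With E14.5 and E15.5 summed and set against E13.5, 17.5% of 9081 genes were higher and 20.2% lower by 2-fold, 37.7% in all. The largest ratios by the naming rule were those of Adam12, Gm32647, Gm26885, Spata1, Ddb2 and Cntn6, all with 0 UMIs at E13.5. Adam12, a metalloprotease of developing mesenchyme, stood at 361 CPM later, at least 11.3-fold higher, and its log2 ratio in other mesenchymal cells was 2.00. Gm26885 rested on 1 barcode with 66 of 67 UMIs. The smallest ratios were those of the neural genes Ncan, Pcsk1n, Rab3c and Dcx and of C130071C03Rik and Paqr3. Ncan stood at 107 CPM at E13.5 and 0 UMIs later, at least 12.2-fold lower, and it was also lower in other mesenchymal cells (log2 ratio -4.89). Dcx, a marker of young neurons, had 11 UMIs at E13.5. Without the 7 barcodes above, which were picked by neuronal genes with Dcx among them, its log2 ratio was 0. Such a value arises when no UMI is left on either side and is no measured equality between stages.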

How the data were processed

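The values deposited by the authors are unnormalized counts of UMIs, 1 matrix for each library. Cell Ranger 6.1.2 and the build mm10 are named in the submitters' processing notes. Barcodes with under 500 genes were left out. Members and gene lists were chosen with earlier results of these data known. Sums of counts were scaled to CPM, with exact Poisson intervals, exact conditional intervals for ratios, and Clopper-Pearson intervals for shares. A count of 0 was set to 3 counts for a bound. Log2 ratios add 1 CPM. With 1 library per stage no test was run, and the scripts were tested on simulated data.

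Named genes were the 14 rule genes, the 12 largest and 12 smallest ratios at E13.5 (at least 50 CPM and 10 UMIs) with the same sign later, up to 3 each way per list at 5 CPM, and 6 each way between stages. The E14.5 and E15.5 genes, those of the Klhl1 division, and single genes such as Robo1 and Eya1 were chosen after their values were seen. Clusters were made with scanpy 1.11.5 and igraph 0.11.9 (2000 variable genes, 30 components, 15 neighbours, resolution 1). Scrublet's automatic threshold marked 0.0617% of barcodes, too few to have worked, so doublets stayed in and the highest scores were left out as an alternative; 1 kept cell was among them. Thinning drew 1000 UMIs per barcode. Some genes that these rules name are not reported here.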

Additional observations from a re-analysis of the deposited data

How the results depend on the processing

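No paired analysis was possible because each stage has 1 library. Depth limits the values most at E13.5, where 16 cells were kept and 1 UMI is 10.7 CPM; counting error says nothing about embryos. Where a value below moved, the cause was not tested unless fewer cells or genes entered by construction. Leaving out each gene's highest barcode, and keeping barcodes of 2000 UMIs or more, were chosen after seeing the data.

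The kept share at E13.5 was 0.0813% with 3 of the 5 markers required or with 2 of Slc26a7, Otor and Aldh1a2 alone, 0.244% without barcodes holding 3 neuronal genes and 0.131% thinned. At E14.5 it was 0% with 3 markers, 0.338% with those 3 genes, 2.97% with 1000 genes per barcode and 0.835% thinned. At E15.5 it was 0.720%, 0.303%, 2.93% and 1.44% in that order.

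Genes past 2-fold numbered 2203, 1772 and 1164 in stage order, and 6843, 6833 and 5598 with no minimum CPM. At E13.5 the number was 3952 without the neuronal barcodes. At E14.5 it was 1158 with Pax9 allowed and 4278 with the 3 genes. At E15.5 it was 674, 4853 and, with 3 markers, 2970. Expression was not recomputed for 3 markers at E13.5 and E14.5, or for the 3 genes at E13.5, with 3, 0 and 3 barcodes.

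Of 993 recomputed log2 ratios of 90 gene results, 858 moved little, 114 moved and 21 changed sign or, for Dcx, went to 0. With the 3 genes at E15.5 the log2 ratio was -5.21 for Snap25, -1.90 for Robo1, -5.95 for Erbb4, -4.50 for Grm8, -0.99 for Nr2f1, -3.74 for Tbx22, -0.54 for Fap, -2.33 for Foxl2, -1.93 for Cdh12, -4.99 for Wnt5b and 0.44 for Meox2. At E14.5 it was -0.73 for Kcnd2 and -1.20 for Lef1. With 3 markers at E15.5 Lef1 was at -2.12 and Wnt5b at -5.01. In both settings the kept cells that dropped out joined the comparison group. A gene without a UMI in so few barcodes has a ratio set by the 1 CPM added. Without the highest barcode Lhfp was at -1.17 (E13.5), Foxl2 at -2.19 (E14.5) and Wnt5b at -2.30 (E15.5). Without the neuronal barcodes March11 was at -2.12 at E13.5, and between stages Paqr3 was at 2.05 and Dcx at 0.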
